A study of Drosophila melanogaster with 2 samples.

Results

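The odorant-binding proteins of Drosophila melanogaster were examined in heads of adult males with and without paraquat feeding. They were taken as every probe set whose annotation gave 1 gene symbol beginning with Obp, plus lush. No symbol began with Pbprp. This gave 36 genes, each with 1 probe set, of 10844 genes that had a probe set of their own. The RefSeq gene table of assembly Release 6 lists 52 genes of these names, and the other 16 had no probe set of their own and are treated apart. Probe sets were grouped by the cytological number in the gene name, which places, for example, Obp56a to Obp56h in 1 cluster.

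RNA came from 2 groups of w1118 males (w118 in some labels), a white-eyed laboratory strain, collected within 24 h of eclosion and reared without light (25 °C, humidity of 70%) in bottles of some 200 flies. The unexposed group was harvested at adult day 3, and its label describes food bottles and names a harvest at a later age beside it. The paraquat group was harvested at adult day 3 after 30 h on sucrose with 15 mM paraquat, begun at adult day 2. The herbicide paraquat generates superoxide by redox cycling, and the comparison asks how oxidative stress changes transcript levels in the head. Each group was 1 Affymetrix DrosGenome1 array of poly(A) RNA from heads sieved away from bodies in liquid nitrogen, so there is no replicate, no test and no p-value. The label of the paraquat group names flies fed plain sucrose as its control, and these were not analysed here. The arrays may therefore come from separate experiments, and the effects of paraquat, of the diet and of the experiment cannot be told apart in any ratio given here.

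Odorant-binding proteins are small secreted proteins, held in a compact fold by disulphide bridges, that carry hydrophobic molecules through fluid. In the antenna they are released by support cells into the lymph of olfactory sensilla, where they meet odorants and pheromones before these reach receptors on the neurons. Other members of the family are made in taste organs, fat body, glia or the male reproductive tract, and for many no ligand is known. In the fly genome most of the genes lie in tandem clusters.

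Values are intensities scaled to a common median. A floor was set at an intensity of 477.3, the 40th percentile of the 2-array mean, and a probe set at or above it on both arrays is called measured. Where 1 array was under the floor, the brighter array over the floor gives a bound, written "at least N-fold", and no ratio is given where neither array reached it. A bound leaves out the array error, which for a log2 ratio was 1.54 at the floor and 0.19 at 10 times the floor. Each log2 ratio, paraquat over unexposed, carries 1 SE of array error (±), built from control probe sets. This error leaves out all spread between flies, bottles and RNA preparations.

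On the unexposed array 20 of the 36 members (55.6%) reached the floor, against 59.7% of all 13966 probe sets. On the paraquat array 14 members (38.9%) did, against 59.9% of all. Measured on both arrays were 13, another 7 were at or above the floor on the unexposed array alone, 1 with paraquat alone, and 15 on neither. The 7 were 35.0% of the 20 members above the floor on the unexposed array, where the share over all probe sets was 10.9%. Except for Obp56a, these 7 lay close above the floor. Of 8 members between 1 and 2 floors on the unexposed array, 6 were under it with paraquat, where 34.6% of all 1801 probe sets in that range were, and the array error is wide there. The highest absent control is the brightest of the control probe sets with no target in fly RNA. Obp69a and Obp8a, at 504 and 529 on the unexposed array, lay above that of the unexposed array (446.5). They lay under that of the paraquat array (533.2), so neither has a bound against it. In heads, less RNA per cell and fewer cells that make it cannot be told apart.

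**Figure D1:**
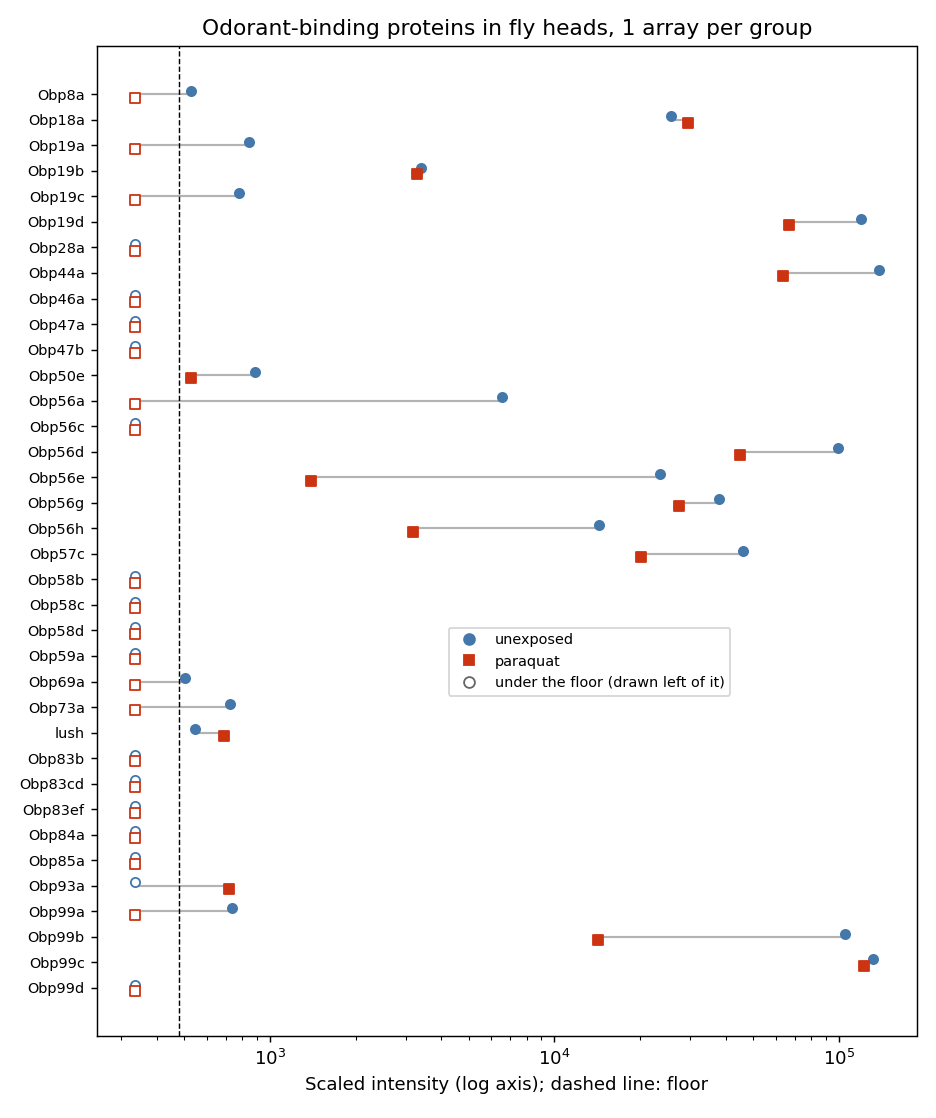
Scaled intensity (log axis) of each of the 36 odorant-binding proteins on the unexposed array (circles) and the paraquat array (squares), with open symbols for values under the floor of 477.3 (dashed line), all drawn at 1 place left of it. Among the 36 members, 15 have open symbols on both arrays, and Obp56a, Obp56e and Obp99b have the longest lines.

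Of the 13 measured members, 6 were at least 2-fold lower on the paraquat array (46.2%), where 8.22% of all 7425 measured probe sets were. None was at least 2-fold higher, where 8.15% of all were. All 6 also lay beyond the 95% interval of their array error. So did all 234 probe sets that were at least 2-fold lower with a mean intensity of at least 10 floors. At that brightness the 2-fold cut fixes this outcome, so it adds no support. The median log2 ratio of the 13 was -0.83, against 0.03 over all measured probe sets, and 11 of the 13 ratios were below 0 (10 after loess), where 47.9% of all were. With the 8 members that reached the floor on 1 array kept at the floor, the median was -0.71. The 6 were all among the 10 members with a mean intensity of at least 10 times the floor. Among probe sets that bright, 10.6% were at least 2-fold lower and 8.64% at least 2-fold higher. The 3 dimmer measured members, Obp19b, Obp50e and lush, were all within 2-fold.

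**Figure D2:**
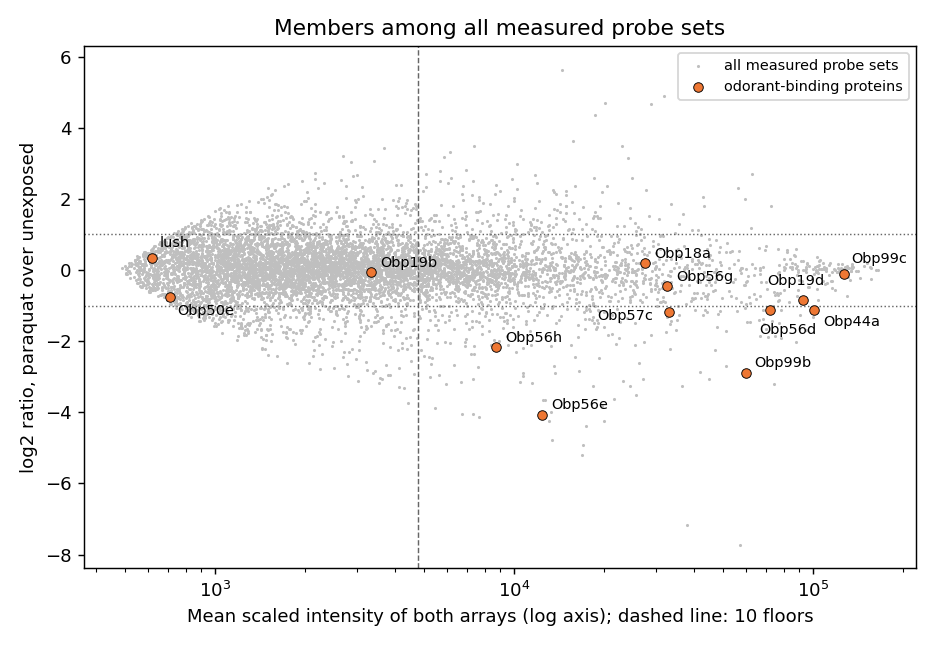
log2 ratio, paraquat over unexposed, against the mean scaled intensity of both arrays (log axis) for the 7425 measured probe sets (grey) and the 13 measured odorant-binding proteins (orange). Of the 10 members right of the dashed line at 10 floors, 6 lie under the dotted line of a 2-fold lower level and none above that of a 2-fold higher one.

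The Obp56 cluster held the largest differences. Obp56e, known from seminal fluid of the male, had an intensity of 23453 in unexposed and 1395 in paraquat-fed heads. It was 16.8-fold lower (log2 -4.07 ± 0.39), with a 95% interval of array error from 9.91-fold to 28.5-fold. Obp56a had 6520 in unexposed and 158 in paraquat-fed heads, the latter under the floor. Its difference was therefore at least 13.7-fold, or at least 12.2-fold against the highest absent control. Obp56h, which affects male mating behaviour and cuticular hydrocarbons, had 14302 and 3181. It was 4.50-fold lower (log2 -2.17 ± 0.20).

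The other members of that cluster differed less or were not measured. Obp56d, which is made in antennae and other head sense organs, had 98879 in unexposed and 45070 in paraquat-fed heads. Its level was 2.19-fold lower (log2 -1.13 ± 0.12), and under 2-fold with quantile normalization (-0.93) or loess (-0.999). Obp56g, which is found in taste organs and in the seminal fluid, where it takes part in forming the mating plug, had 37808 and 27474, a 1.38-fold difference (log2 -0.46 ± 0.12). Obp56c stood under the floor on both arrays, at 217 and 143. All 5 members of the cluster that reached the floor were thus brighter on the unexposed array, 4 of them by at least 2-fold with the bound of Obp56a counted. Over all measured probe sets, 47.9% had a ratio below 0 and 8.22% were at least 2-fold lower.

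Genes that lie among and beside the Obp56 genes in the RefSeq order were within 2-fold where both arrays measured them, and 2 others were above the floor on the unexposed array alone. CG15128 was one of these, at least 1.46-fold lower (697 and 98.3). CG15126, the gene next to Obp56a on the outer side, had 1438 in unexposed and 2283 in paraquat-fed heads (log2 0.67 ± 0.44). Toll-7, a Toll-family receptor gene next to Obp56h, had 850 and 1300 (log2 0.61 ± 0.74). Between Obp56e and Obp56g lie CG8517, the other of these, which was at least 2.16-fold lower (1032 and -56), and the odorant receptor gene Or56a, which reached the floor on neither array. For the 7 members that were at least 2-fold lower, the bound of Obp56a included, the nearest 2 other protein-coding genes on each side came to 18 genes, of which 7 were measured. None of these 7 was at least 2-fold lower or higher, and their log2 ratios ran from -0.43 to 0.95 with a median of 0.21, but the 18 also hold CG8517 and CG15128 with their lower bounds. Beside all members lay 92 such genes, 39 of them measured, and of these Cpr73D (log2 -1.54 ± 0.31) and CG5793 (-1.56 ± 0.18) passed 2-fold, both downward. By bounds, CG15458, Pp4-19C, RapGAP1 and Taf6 were between at least 2.29-fold and at least 2.43-fold higher with paraquat. Over all measured probe sets, 8.22% passed 2-fold downward and 8.15% upward.

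**Figure D3:**
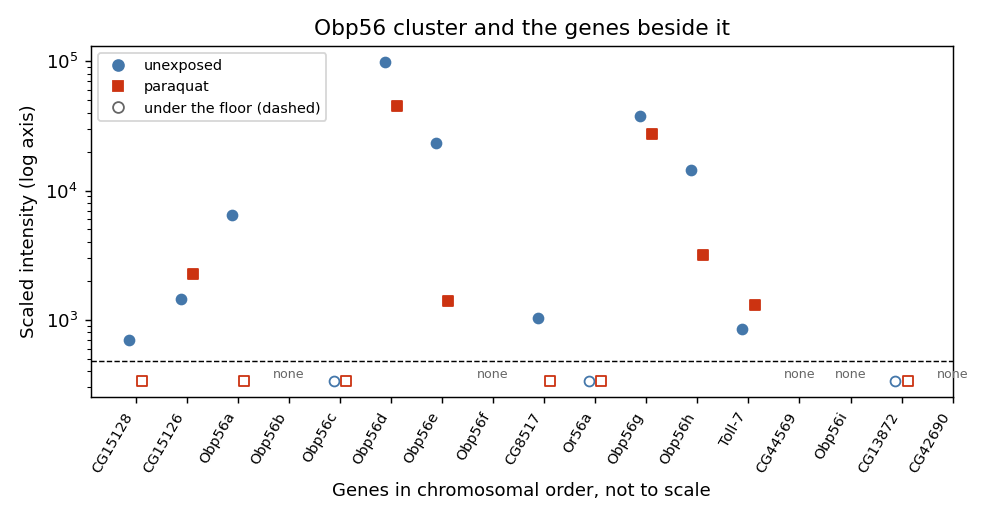
Scaled intensity (log axis) on the unexposed array (circles) and the paraquat array (squares) for the genes of the Obp56 cluster and the genes beside it, in chromosomal order and not to scale, with open symbols for values under the floor (dashed line) and "none" for genes without a probe set of their own. The blue circle stands above the red square for Obp56a, Obp56d, Obp56e, Obp56g, Obp56h, CG15128 and CG8517 and below it for CG15126 and Toll-7.

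In the Obp99 cluster the members differed from each other. Obp99b, a product of the head fat body that is controlled by the sex determination pathway in males, had 105091 in unexposed and 14190 in paraquat-fed heads. It was 7.41-fold lower (log2 -2.89 ± 0.12). Obp99c had 132168 and 122188, a difference within the array error (log2 -0.11 ± 0.12, and 0.06 after loess). The highest deposited intensities were 167877 (unexposed) and 167034 (paraquat), so Obp99c stood toward the top of the range of both arrays. Obp44a, Obp19d, Obp99b and Obp56d stood toward that of the unexposed array. Whether this narrowed the ratios of these members was not tested. Obp99a was above the floor on the unexposed array alone (735, against -462), at least 1.54-fold lower, and Obp99d was under the floor on both.

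The Obp19 cluster, whose genes lie side by side, held a bright member and dim ones. Obp19d, which is secreted in olfactory and taste hairs and also beneath the cuticle, had 119265 in unexposed and 66873 in paraquat-fed heads. Its level was 1.78-fold lower (log2 -0.83 ± 0.12), with a 95% interval of array error from 1.52-fold to 2.09-fold. Obp19b, which acts in the taste of amino acids, had 3406 and 3276 and did not differ beyond the array error (log2 -0.06 ± 0.25). Obp19a (841 on the unexposed array) and Obp19c (781) were under the floor with paraquat, with bounds of 1.76-fold and 1.64-fold.

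Of the other 3 bright members, Obp44a and Obp57c were lower with paraquat and Obp18a was near equality. Obp44a, a fatty-acid binding protein secreted by glia of the nervous system, had 138589 in unexposed and 63372 in paraquat-fed heads. It was 2.19-fold lower (log2 -1.13 ± 0.12), and under 2-fold with quantile normalization (-0.92) or loess (-0.97). Obp57c had 46040 and 20130 and was 2.29-fold lower (log2 -1.19 ± 0.12). Obp18a had 25701 and 29360 and was the 1 bright member with a ratio above 0, inside the 95% interval of array error (log2 0.19 ± 0.12).

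**Figure D4:**
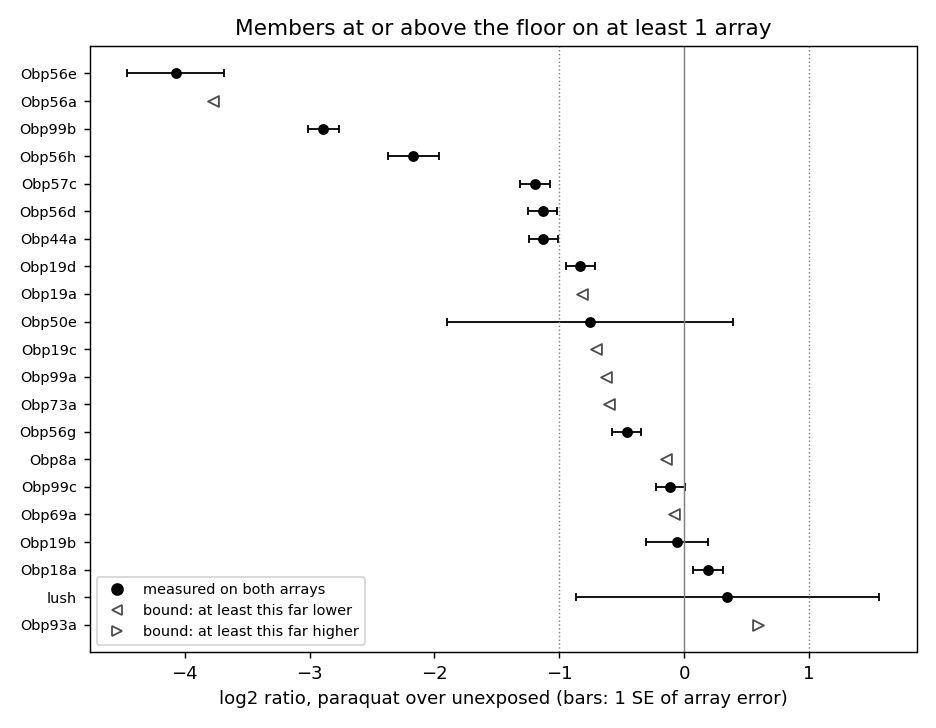
log2 ratio, paraquat over unexposed, of the 21 members that reached the floor on at least 1 array, with bars of 1 SE of array error for the 13 measured on both and open triangles for the 8 bounds. The ratios spread from -4.07 for Obp56e to 0.34 for lush, with wide bars on Obp50e and lush, and dotted lines mark 2-fold.

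Apart from Obp56d and Obp19d, the members listed as proteins of antennal olfactory sensilla were close to the floor or under it. Of 9 members listed as antennal that had a probe set of their own, 3 were measured, namely these 2 and lush. The protein of lush binds the male pheromone cis-vaccenyl acetate, and its probe set read 544 in unexposed and 691 in paraquat-fed heads (log2 0.34 ± 1.21). Obp28a, an abundant protein of antennal sensilla, read 433 and -860. Obp59a, which is needed for sensing humidity, read -486 and -458. Obp83b (151 and -102) and Obp84a (negative on both arrays) were also under the floor on both arrays, and Obp69a (504 and 382) and Obp19a reached it on the unexposed array alone.

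Several defining genes of olfactory neurons were under the floor, while other listed genes of the antenna lay on either side of it. Orco, the co-receptor that nearly all odorant receptors need, read -247 in unexposed and 239 in paraquat-fed heads. Snmp1, a membrane protein of pheromone-sensing neurons, read 90.0 and -306, and the co-receptors Ir25a, Ir8a and Ir76b were under the floor on both. Of the listed markers of olfactory neurons, only Snmp2, which support cells also make, reached the floor, on both arrays with 1 probe set (1173 and 3967, log2 1.76 ± 0.47) and with paraquat alone for its other one. The summed level of that list, with negative values taken as 0, was 1923 in unexposed and 5410 in paraquat-fed heads. Most of it came from both probe sets of Snmp2 (1173 and 436 in unexposed, 3967 and 1076 in paraquat-fed heads). The rest was signal under the floor. Of 6 antennal support proteins and odorant-degrading enzymes, EbpIII, Phk-3 and a10 were measured on both arrays. Jhedup reached the floor with paraquat alone (121 and 568), and Os-C (-316 and -373) and a5 (-221 and 97.8) on neither array. Some odorant receptors were also measured (values below). Whether antennae were held back with the heads was not tested.

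By the organ in which members are known, the counts were small. Among all measured probe sets, 8.22% were at least 2-fold lower (10.6% of those with a mean intensity of at least 10 floors). Of 5 taste-organ members all were measured, and Obp56h and Obp57c were at least 2-fold lower while Obp18a, Obp19b and Obp56g were not. Of 3 seminal fluid members, Obp56e was at least 2-fold lower, Obp56g was not, and Obp8a was at or above the floor only without paraquat (529 and 137). Obp99b was the 1 member of the head fat body list. Of 19 members in none of these groups, 3 were measured, Obp44a, Obp99c and Obp50e, and of these Obp44a was at least 2-fold lower. The same 19 hold Obp56a, at least 13.7-fold lower, the smaller lower bounds of Obp19c, Obp73a and Obp99a, and the higher bound of Obp93a. Obp50e had 888 and 527, the latter not above the highest absent control (log2 -0.75 ± 1.15).

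Markers of fat body, male reproductive tract and muscle were also lower on the paraquat array, while glial and gut markers went both ways. Over all measured probe sets, 8.22% were at least 2-fold lower and 8.15% higher. Of 11 head fat body probe sets, Obp99b among them, 9 were measured and all 9 were at least 2-fold lower (median log2 -2.70), with a summed level of 695227 in unexposed and 106544 in paraquat-fed heads. Of 25 probe sets for the male reproductive tract, which is no part of the head, 17 reached the floor in unexposed and 3 in paraquat-fed heads, with summed levels of 52119 and 7899. The markers Acp95EF (5863 and -262) and Mst57Da (9999 and -128) were among those under the floor with paraquat. Of 15 muscle probe sets 10 were measured, 3 of them at least 2-fold lower (median -0.93), with summed levels of 205734 and 77243. Of 9 glial probe sets 7 were measured, with 3 lower and 1 higher by at least 2-fold (median -0.81), with summed levels of 140463 and 111612. Of the 7 measured glial ratios 6 were below 0, where 47.9% of all were. Among them were wrapper (log2 -2.23 ± 1.02), Inx2 (-1.28 ± 0.57) and nrv2 (-1.20 ± 0.15). The exception was loco, 3.58-fold higher by 1 probe set. Its other probe set, at least 2.60-fold higher, was 1 of 2 glial ones above the floor with paraquat alone. Of 10 gut probe sets 4 were measured, 1 at least 2-fold lower and 1 at least 2-fold higher (median -0.59), with summed levels of 25531 and 22697. The part of these tissues in the values of Obp99b, Obp56e and Obp44a was not tested. With the members of the fat body and seminal fluid lists left out (Obp99b, Obp56e, Obp56g and Obp8a), 4 of 10 measured members were at least 2-fold lower. Over all measured probe sets 8.22% were. The median of the 10 was -0.79, against 0.03 over all. The 4 were Obp44a, Obp56d, Obp56h and Obp57c. Of these, Obp44a and Obp56d were under 2-fold with quantile normalization (-0.92 and -0.93) or loess (-0.97 and -0.999). Obp44a, a product of glia, was not left out.

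Photoreceptor and neuronal markers of the head differed less. All 6 photoreceptor probe sets were measured and none passed 2-fold (median -0.11, summed levels 476366 and 440691). None of 8 measured neuronal probe sets passed 2-fold (median -0.33, summed levels 65693 and 58197). Probe sets for ribosomal RNA, which the poly(A) selection should deplete, were between 1.89-fold and 2.02-fold lower on the paraquat array. The signal at the 5′ end over that at the 3′ end, a sign of RNA integrity, was 0.365 for GAPDH in unexposed and 0.403 in paraquat-fed heads. For eIF-4a it was 0.0858 and 0.102. For actin, whose 5′ signal (573 and 578) lay close above the floor, it was 0.0653 and 0.0846. The part of these differences in the members' ratios was not tested.

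Receptor families of smell and taste were mostly under the floor, and the medians of their measured probe sets lay near 0. Every measured one had a mean intensity under 10 floors, where the array error is wider. The 3 odorant-binding proteins measured under 10 floors were also within 2-fold. Of 54 probe sets for 53 odorant receptors, 9 were measured, with a median of -0.06. Of these 9, 2 were lower by at least 2-fold (8.22% of all measured probe sets were) and none was higher by as much (8.15% of all). The lowest were Or47b, a receptor for fly-derived odours (1978 and 605, log2 -1.71 ± 0.90), and Or22c (1731 and 707, log2 -1.29 ± 0.80). Or59b was under the floor on the unexposed array and reached 5006 on the paraquat array, at least 10.5-fold higher. Of 28 gustatory receptor probe sets 7 were measured and none of these passed 2-fold (median -0.09), while Gr98a was above the floor on the unexposed array alone, at least 2.28-fold lower (1089 and -37.1). Of 47 ionotropic receptor probe sets 9 were measured, of which Ir60d (log2 1.26 ± 0.91) and Ir7d (1.13 ± 1.08) were higher by at least 2-fold while no measured one was lower by as much (median -0.07). Ir56b was at least 2.15-fold lower (1025 and 231).

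Other secreted or membrane proteins of chemosensory organs were few. Of 8 CheA and CheB genes, related to lipid-binding proteins and made in taste organs, 4 were measured, all with ratios below 0, and CheA7a was at least 2-fold lower (2058 and 816, log2 -1.33 ± 0.69). Among the 6 antennal support proteins and enzymes, EbpIII, a chemosensory protein named for the male ejaculatory bulb, had 140553 and 95806 (log2 -0.55 ± 0.12). Phk-3 (3491 and 3234, log2 -0.11 ± 0.25) and a10 (1144 and 1874, log2 0.71 ± 0.54), of the same protein family, were within 2-fold. Of the pheromone-sensing channels, ppk29 had 1854 and 1159 (log2 -0.68 ± 0.54), and ppk23 and ppk25 were under the floor on both arrays.

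**Figure D5:**
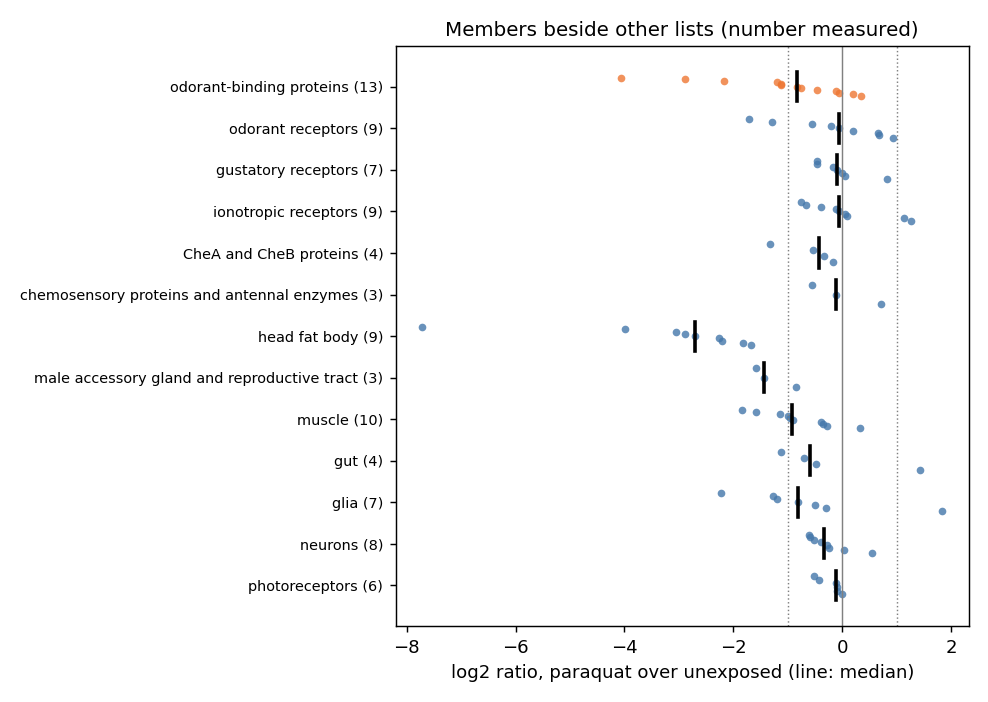
log2 ratio, paraquat over unexposed, of each probe set measured on both arrays (points) and the median (black line) for the odorant-binding proteins (orange) and 12 other lists (blue), with the number measured in brackets. The median is -0.83 for the odorant-binding proteins, -0.06 for the odorant receptors and -2.70 for the head fat body.

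The remaining members were dim. Obp73a had 724 in unexposed and 467 in paraquat-fed heads, at least 1.52-fold lower against the floor and 1.36-fold against the highest absent control. Obp93a was the 1 member that reached the floor with paraquat alone (229 and 719.5), at least 1.51-fold higher. Obp46a, Obp47a, Obp47b, Obp58b, Obp58c, Obp58d, Obp83cd, Obp83ef and Obp85a were under the floor on both arrays. No difference is given for these 9, and the bounds of Obp73a and Obp93a are smaller than the array error at the floor.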

How the data were processed

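Each deposited value is a probe set intensity, on a linear scale with values below 0. Per the labels, DrosGenome1 arrays were run by the standard Affymetrix protocol, and the sources used here do not give the probe summary software. Trimming 2% of probe sets at each end left a mean of 2500 on each array as deposited. Of 14010 probe sets, 44 were controls. The other 13966 were scaled to a common median of 825.2 (factors 1.01 unexposed, 0.99 paraquat), floored at the 40th percentile and set to log2. The array error joins the SD of 46 intensities of absent controls (358.3) with that of 9 log2 ratios of spiked-in controls (0.12). Its 95% interval is 1.96 SE.

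Gene names came from the platform annotation table, and all 36 member symbols matched the current RefSeq symbol of their gene ID. The RefSeq table served for names and gene order alone. No sequences are shown. Members, lists and tests were chosen with earlier results of these data known. The bright class (10 floors), the range of 1 to 2 floors and the gene-order comparison were added after the values were seen. Named are all members and, of the other lists, up to 4 genes of largest absolute log2 ratio and the defining markers under the floor. Neighbours, loco, Or59b, Gr98a, Ir56b, Acp95EF, Mst57Da, fit, tobi, Prm and Act88F were named after their values were seen. Computation used Python 3.11.15 with pandas 2.3.3, and was checked on simulated arrays.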

Additional observations from a re-analysis of the deposited data

How the results depend on the processing

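With 1 array per group no replicate could be left out. No paired analysis was possible because each group held 1 array. The count of members at least 2-fold lower was 6 as deposited (7.80% of all measured probe sets were that much lower), with the floor at the 60th percentile (6.54%) and with it at the highest absent control (8.02%). It was 4 after quantile normalization (8.09%), after loess (8.69%) and, of 8 measured, with the floor at the 80th percentile (6.72%). It was 10 of 36 with a pseudocount in place of the floor (6.32%). Their median was -0.63 with the floor at the 30th percentile (an alternative chosen after seeing the data), -1.13 at the 60th, -0.98 at the 80th and at the highest absent control, and -0.41 with the pseudocount, which takes in members under the floor. At the 30th percentile 1 member was at least 2-fold higher, Obp93a, as were 10.2% of all. The floor at the 20th percentile was not run because that percentile is negative (-20.4). No member past 2-fold changed direction in any alternative run. The dim members are limited by signal over background, and every value by the number of arrays.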

Other observations

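Of the 16 odorant-binding protein genes without a probe set of their own, 3 shared one with another gene. The probe set annotated to both Obp57d and the cuticular protein gene Cpr57A read 2308 in unexposed and 6708 in paraquat-fed heads, 2.91-fold higher (log2 1.54 ± 0.26). Which gene's transcript it read cannot be told apart. The probe set shared by Obp50b and Obp50c read 537 and 266, under the floor on the paraquat array. The other 13, among them Obp83a, Obp49a, Obp22a and Obp51a, were not analysed here.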
